A study of Mus musculus with 2 samples.

Results

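Mitochondrial ribosomal protein genes were compared between a mouse mesenchymal stem cell line without Dicer and a line with it. They were taken as every gene of the deposited table whose symbol starts with Mrpl (large subunit) or Mrps (small subunit), followed by a number and at most 1 letter a, b or c. The choice used the symbol alone and no measured value. It gave 76 of the 23227 symbols, 47 of the large and 29 of the small subunit. The knockout (KO) carried the genotype Dicer -/-, and the wild type (WT) carried floxed, intact alleles, Dicer f/f. Both were immortalised monoclonal lines of adult mesenchymal stem cells, also labelled fibroblasts, so each genotype stands for 1 clone and genotype cannot be told apart from clone. They grew in Alpha-MEM with fetal bovine serum and antibiotics, and polyadenylated RNA was taken from cells below confluence. The labels list 1 sample per genotype, and no age, sex or strain is used here.

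The mitochondrial ribosome is a separate ribosome inside the organelle that makes only the few proteins encoded by mitochondrial DNA, all of them core parts of the respiratory chain and ATP synthase. Its RNA comes from mitochondrial DNA, but every one of its proteins is encoded in the nucleus, made in the cytosol and imported. The small subunit reads the messenger RNA, and the large subunit joins amino acids and releases the chain through an exit tunnel towards the inner membrane. Some of its proteins descend from bacterial ribosomal proteins, and others were gained in mitochondria. Dicer is the ribonuclease that releases mature microRNAs from their hairpins, and the study asked how mature messenger RNA differed with and without it. Levels below are messenger RNA levels and not ribosome or protein levels.

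Values are normalised reads, that is, read numbers divided by the size factor of their library. The deposited means split into the whole reads of 2 libraries per genotype, called deeper and shallower after their totals, which were 15718369 and 14969532 reads in genes for KO, and 15369250 and 14135422 for WT. Nothing in the labels says that these are separate cultures, so their spread may be technical. Values are given as the deeper and then the shallower library. Dicer1, the targeted gene, had 573 and 557 normalised reads in the KO libraries and 804 and 943 in the WT libraries, a KO over WT ratio of 0.647 with a 95% exact counting interval of 0.6 to 0.698. Each KO library was lower than each WT library, with a limma adjusted p of 0.0952 and an adjusted p of 0.497 in the authors' deposited table. A count over the whole gene does not show whether the deleted stretch was read. Among 8 mesenchymal and fibroblast markers, Thy1 was listed at 0 in all 4 libraries, and the sum of the list was 86374 and 103777 normalised reads in KO and 156716 and 185773 in WT. Most of it came from Col1a1, Col1a2 and Vim. The collagen genes Col1a1 (ratio 0.432) and Col1a2 (0.486) passed the 2-fold rule downwards, whereas Pdgfrb (1.41) and Nt5e (1.06) had ratios above 1, and 3 of the 7 tested markers were lower in both KO libraries. The haematopoietic list summed to 194 and 171 normalised reads in KO and 148 and 138 in WT, nearly all from Cd14. The epithelial list, with Epcam at 0 throughout, summed to 32.2 and 51.7 in KO and 15.4 and 70.6 in WT, and the endothelial list to 13.8 and 18.9 in KO and 9.64 and 11.2 in WT. Whether these marker levels bear on the genes below was not tested.

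All 76 genes were well covered, with means over both genotypes from 171.5 to 1464.1 normalised reads, so every one entered the comparison of 11710 genes with a mean of at least 20. Most differed little between the lines. Only Mrpl38, of the large subunit, passed the 2-fold rule upwards in KO, and only Mrpl33, also of the large subunit, passed it downwards. This rule asked for a ratio of at least 2 or at most 0.5 with a counting interval excluding 1, and it called 8.92% of all genes tested higher and 8.56% lower. At 1.5-fold, 2 genes were higher (Mrpl38 and Mrpl46) and 14 lower, while 60 were neither, beside 17.3% of all genes higher and 17.9% lower. The authors' deposited table called the same 2 genes as the 2-fold rule at an adjusted p below 0.1, where it called 5.56% of all genes tested higher and 5.34% lower. Over the 4 libraries, limma at an adjusted p below 0.05 called Mrpl38 alone, beside 4.61% of all genes higher and 4.14% lower. At an unadjusted p below 0.05, limma had 6 of the genes higher and 11 lower. The share of all genes tested at that threshold is not given here, so these 2 counts have no scale.

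With all 4 libraries, the large subunit genes were, on balance, lower in KO, and the small subunit genes were centred near 0. The median log2 ratio of KO over WT was -0.21 for the 47 large subunit genes, with quartiles of -0.60 and 0.07, and -0.01 for the 29 small subunit genes, with quartiles of -0.31 and 0.29. The median over all genes tested was -0.01. Both subunit medians depended on the KO library used. Without the deeper KO library they were -0.05 for the large and 0.14 for the small subunit. Without the shallower KO library they were -0.51 and -0.18. All but 2 of the 14 genes lower at 1.5-fold belonged to the large subunit: Mrpl33, Mrpl42, Mrpl54, Mrpl3, Mrpl55, Mrpl20, Mrpl11, Mrpl34, Mrpl4, Mrpl49, Mrpl21 and Mrpl52. The small subunit contributed Mrps17 and Mrps15. These were 12 of 47 large and 2 of 29 small subunit genes, beside 17.9% of all genes tested. Each KO library was lower than each WT library for 20 large subunit genes (42.6%) and above them for 7 (14.9%). In the small subunit, 8 genes (27.6%) lay below and 7 (24.1%) above. Among all genes tested, 28.8% lay below and 30.4% above. The difference of the medians, large minus small, was -0.20. It was -0.11 when subunits followed the known structure, in which Mrps18a and Mrps30 sit in the large subunit and Mrps36 is not a ribosomal protein. It was -0.33 without the shallower KO library, and -0.13 between the shallower KO and the shallower WT library. No test was made over genes, which are not replicates.

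**Figure D1:**
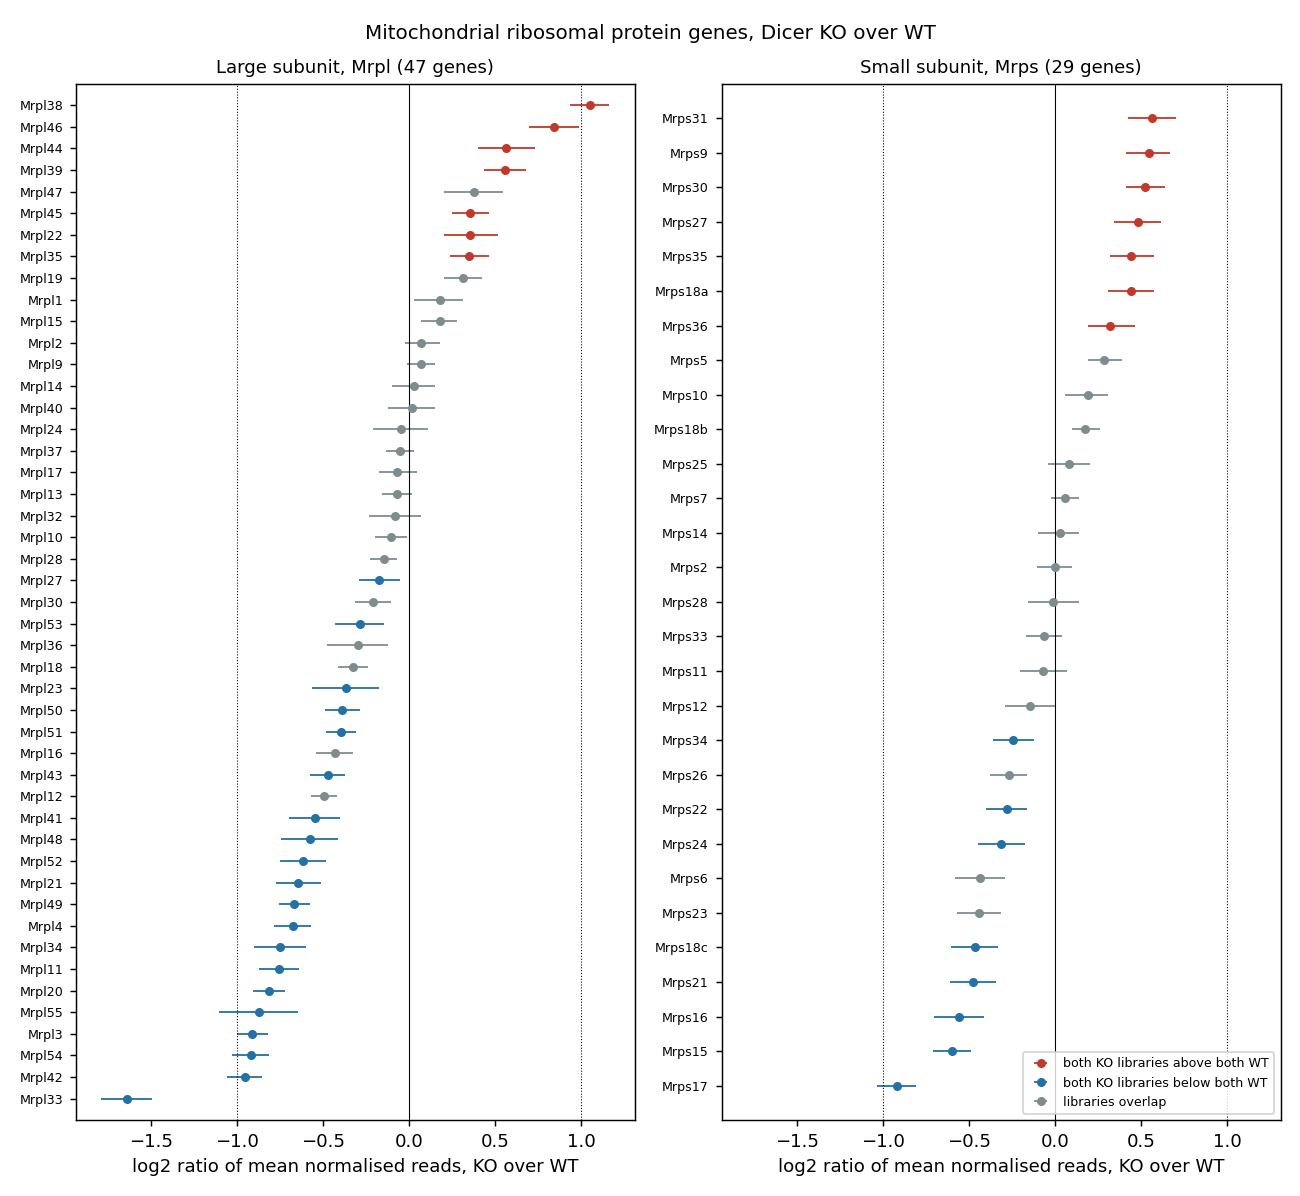
KO over WT log2 ratio of mean normalised reads for each of the 47 large subunit (left) and 29 small subunit (right) genes, in order of ratio, with 95% exact counting intervals as bars and dotted lines at a 2-fold difference. Red marks genes with both KO libraries above both WT libraries, blue those with both below and grey those that overlap; 20 large subunit genes are blue and 7 red, against 8 blue and 7 red in the small subunit.

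The balance between the subunits was also read within each library, where sequencing depth cancels. Summed large subunit reads were 1.67 and 1.79 times the summed small subunit reads in the KO libraries, and 2.04 and 1.99 times in the WT libraries. The means were 1.73 ± 0.0855 in KO and 2.01 ± 0.0355 in WT (SD, n = 2 libraries each), and the libraries of the genotypes did not overlap. A two-sided exact permutation test gave p = 0.333, which is the smallest p that 2 against 2 libraries allow. With subunits by structure the values were 1.98 and 2.08 in KO and 2.28 and 2.2 in WT. The sums themselves overlapped. On the RPM scale, which sets each library's reads in genes to the same total, large subunit genes summed to 1695.9 and 2256.9 in KO, against 2206.0 and 2275.5 in WT. Small subunit genes summed to 1015.1 and 1259.8 RPM in KO, against 1082.2 and 1144.4 in WT. The deeper KO library had the lowest sum of both subunits, and the shallower KO library was within the range of the WT libraries for the large subunit and above both for the small.

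**Figure D2:**
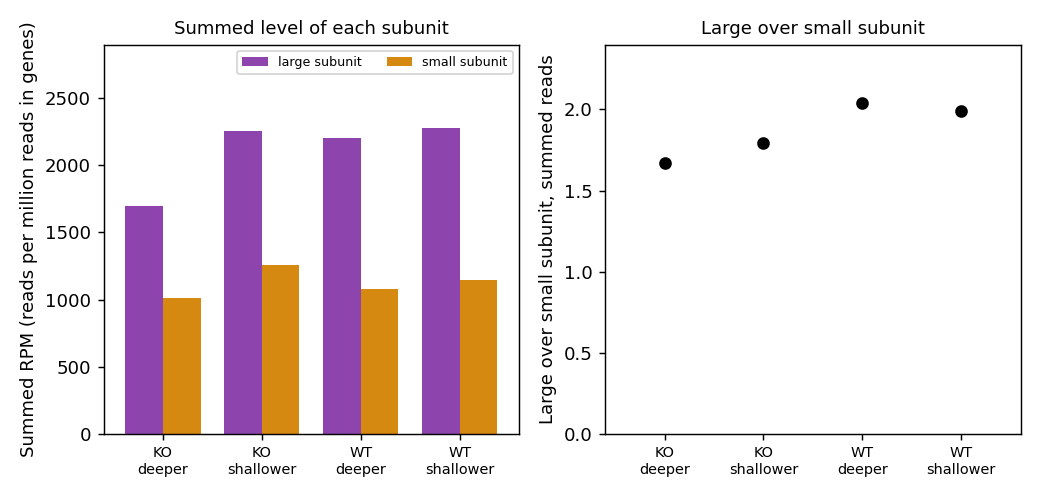
Summed RPM of large and small subunit genes (left, bars from 0) and the ratio of the large to the small sum (right) in each of the 4 libraries. The ratio is 1.67 and 1.79 in the KO libraries and 2.04 and 1.99 in the WT libraries.

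Mitochondrial ribosomal protein genes are known targets of the nuclear factors NRF1, ETS family members such as GABP, and YY1. Windows of 250 bases before to 50 after the start of each gene, from RefSeq on GRCm38.p6, were available for 67 of the 76 genes and were searched on both strands for 3 motifs. The NRF1 motif, GCGCA and GCGC with any 1 base between them, was present in 12 windows (17.9%), against 5.19% of all promoters and 11.9% of promoters of tested genes. The ETS motif CCGGAAGT was present in 12 (17.9%), against 4.31% and 9.29%. The YY1 motif AANATGGCG was present in 10 (14.9%), against 2.76% and 6.19%. No motif contains another, 3 windows (those of Mrps26, Mrps27 and Mrpl27) held a pair of them, and 31 (46.3%) held at least 1 of them, against 11.2% of all and 24.7% of tested genes. The windows below run from 90 bases before to 30 after the start and show, for each motif, the gene of lowest and the gene of highest KO over WT ratio among those holding it there. Capitals mark the motif, on either strand, and all read 5′ to 3′ along the gene.
Mrpl12: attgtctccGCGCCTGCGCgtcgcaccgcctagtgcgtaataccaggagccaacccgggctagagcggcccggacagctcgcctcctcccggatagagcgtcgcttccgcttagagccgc
Mrpl44: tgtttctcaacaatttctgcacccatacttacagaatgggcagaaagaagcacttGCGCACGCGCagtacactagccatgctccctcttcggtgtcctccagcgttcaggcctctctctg
Mrpl33: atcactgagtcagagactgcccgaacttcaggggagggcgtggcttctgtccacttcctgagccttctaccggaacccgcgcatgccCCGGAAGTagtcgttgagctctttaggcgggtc
Mrps27: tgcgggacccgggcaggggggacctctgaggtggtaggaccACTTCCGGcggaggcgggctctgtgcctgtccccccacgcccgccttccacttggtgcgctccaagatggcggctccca
Mrpl36: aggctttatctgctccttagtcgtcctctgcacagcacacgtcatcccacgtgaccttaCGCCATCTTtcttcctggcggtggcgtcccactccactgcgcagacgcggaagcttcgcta
Mrps30: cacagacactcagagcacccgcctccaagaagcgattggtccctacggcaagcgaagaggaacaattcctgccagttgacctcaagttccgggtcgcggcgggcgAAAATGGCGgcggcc
The windows lie at chr11:120484547-120484666 (Mrpl12, plus strand), chr1:79775928-79776047 (Mrpl44, plus) and chr5:31613861-31613980 (Mrpl33, plus). The others lie at chr13:99344696-99344815 (Mrps27, plus), chr13:73330919-73331038 (Mrpl36, plus) and chr13:118387223-118387342 (Mrps30, minus). The NRF1 letters stood before genes with log2 ratios from -0.50 (Mrpl12) to 0.57 (Mrpl44), the ETS letters from -1.64 (Mrpl33) to 0.48 (Mrps27), and the YY1 letters from -0.96 (Mrpl42, whose match lies outside the window shown) to 0.52 (Mrps30). The Mrps27 window also holds the YY1 letters. Median log2 ratios with and without a motif were -0.02 and -0.28 for NRF1, -0.43 and -0.07 for ETS, and -0.06 and -0.21 for YY1. Over all tested genes with a promoter window they lay close together. They were -0.05 and -0.01 for NRF1, -0.03 and -0.01 for ETS, and -0.00 and -0.02 for YY1. Each motif stood before genes with ratios above 1 and genes with ratios below 1. A match is a run of letters and does not show binding.

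Mrpl33, a small protein with a bacterial counterpart, had the lowest ratio of all 76 genes. It had 136 and 347 normalised reads in KO and 682 and 826 in WT, a ratio of 0.321 (interval 0.289 to 0.355). From the deeper KO library alone the ratio was 0.181, and from the shallower KO library alone it was 0.461. The authors' deposited table gave an adjusted p of 6.4e-04 and limma one of 0.0896, and the KO libraries differed from each other more than the WT libraries did. Mrpl38, a protein of the central protuberance, had the highest ratio, with 869 and 1007 normalised reads in KO and 465 and 444 in WT. The ratio was 2.07 (1.91 to 2.24). By limma its log2 difference was 1.04 ± 0.17 (SE) with an adjusted p of 0.0352, and the authors' deposited table gave an adjusted p of 0.0711. Its ratio was 1.91 without the shallower KO library, and limma's adjusted p ran from 0.111 to 0.151 when any 1 of the 4 libraries was left out. Mrpl38 shares no exon position with another annotated gene, while Mrpl33 overlaps 1 unnamed predicted gene on its own strand.

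The central protuberance, the crown of the large subunit near the head of the small subunit, held both genes that were higher at 1.5-fold. Beside Mrpl38, Mrpl46 had 495 and 586 normalised reads in KO and 292 and 312 in WT, a ratio of 1.79 (1.62 to 1.98) with a limma adjusted p of 0.0686. Exons of Mrpl46 overlap those of Mrps11 on the other strand, and Mrps11 had a ratio of 0.954. The other 3 members did not share this direction. Mrpl40 had a ratio of 1.01 and Mrpl18 of 0.797, with overlapping libraries. Mrpl48 had 198 and 300 normalised reads in KO and 342 and 400 in WT, a ratio of 0.67, and an annotated pseudogene bears its name. The median log2 ratio of the group was 0.01, although its members ranged from -0.58 to 1.05.

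The stalk, which recruits translation factors to the ribosome and is named L7/L12 after its bacterial proteins, had the lowest median of the 6 structural groups described. All 5 of its genes had ratios below 1, with a median log2 ratio of -0.50, and 3 of them had no overlap between the lower KO and the higher WT libraries. Over all 11710 genes tested, 5903 had ratios below 1, and 28.8% lay below WT in both KO libraries. The median log2 difference of deeper over shallower library in these 5 genes was -0.58 in KO and -0.00 in WT. For all 76 genes it was -0.41 and -0.16. Mrpl54 had 419 and 639 normalised reads in KO and 1002 and 1001 in WT (ratio 0.528). Mrpl11 had 383 and 573 in KO and 754 and 864 in WT (ratio 0.591). Both passed the 1.5-fold rule, with limma adjusted p of 0.0863 and 0.129, and neither passed limma's threshold. Mrpl53 had 347 and 386 in KO and 447 in each WT library (ratio 0.819). Mrpl12, the mobile stalk protein and the gene with the most reads of the 76, had 777 and 1652 normalised reads in KO and 1471 and 1956 in WT (ratio 0.709). Its shallower KO library lay above the deeper WT library, so the genotypes overlapped. Mrpl10, the protein that anchors Mrpl12, had a ratio of 0.929 with overlapping libraries, which was 1.02 without the deeper WT library.

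Around the peptidyl transferase centre, where amino acids are joined, 3 of 5 genes lay below WT in both KO libraries and none lay above. Over all genes tested, 28.8% lay below and 30.4% above. The median log2 ratio of the 5 genes was -0.43. Mrpl3 had 672 and 851 normalised reads in KO and 1288 and 1581 in WT, a ratio of 0.531 (0.499 to 0.565), with a limma adjusted p of 0.0653. Mrpl4 had 500 and 605 in KO and 901 and 866 in WT (ratio 0.625). Mrpl27 was close to 1 at 0.887, Mrpl16 overlapped at 0.74, and Mrpl2 had a ratio of 1.05. The 6 genes listed for the exit tunnel went both ways, with 3 ratios above 1, 3 below and a median log2 ratio of 0.15. Mrpl45, a mitochondrial protein at the mouth of the tunnel that faces the inner membrane, had 920 and 869 normalised reads in KO and 714 and 682 in WT (ratio 1.28). Mrpl22 had 349 and 420 in KO and 299 and 302 in WT, also a ratio of 1.28. Mrpl23 had 168 and 212 in KO and 237 and 255 in WT (ratio 0.774), and a processed copy named after it in the annotation could share its reads. Mrpl47 had a ratio of 1.3 with overlapping libraries, which was 0.956 without the shallower KO library, and Mrpl17 (0.952) and Mrpl24 (0.966) were close to 1. None of these 6 listed genes passed the 1.5-fold rule, and Mrpl4, which did, was listed with the peptidyl transferase centre.

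Outside these groups, 7 more large subunit genes passed the 1.5-fold rule downwards, namely Mrpl42, Mrpl55, Mrpl20, Mrpl34, Mrpl49, Mrpl21 and Mrpl52. Mrpl42, a protein found only in mitochondrial ribosomes, had 423 and 707 normalised reads in KO and 1004 and 1191 in WT, a ratio of 0.515 (0.479 to 0.553) with an adjusted p of 0.104 in the authors' deposited table. Mrpl55, with the fewest reads of the 76 genes, had 92 and 150 in KO and 206 and 238 in WT (ratio 0.546). Mrpl20 had 476 and 929 in KO and 1176 and 1297 in WT (ratio 0.568). In each of these 3 genes the KO libraries were lower than both WT libraries and were further apart from each other than the WT libraries. Mrpl34 had 264 and 304 in KO and 511 and 444 in WT (ratio 0.594), and Mrpl49, Mrpl21 and Mrpl52 had ratios of 0.629, 0.639 and 0.652. Mrpl44 and Mrpl39 had ratios above 1 without passing the 1.5-fold rule. Mrpl44, which carries a ribonuclease III fold of the family to which Dicer also belongs, had 355 and 415 normalised reads in KO and 245 and 275 in WT (ratio 1.48, limma adjusted p = 0.161). Mrpl39 had 625 and 709 in KO and 466 and 441 in WT (ratio 1.47, limma adjusted p = 0.123). Mrpl28 and Mrpl9, next after Mrpl12 in mean reads among large subunit genes, had ratios of 0.902 and 1.05.

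**Figure D3:**
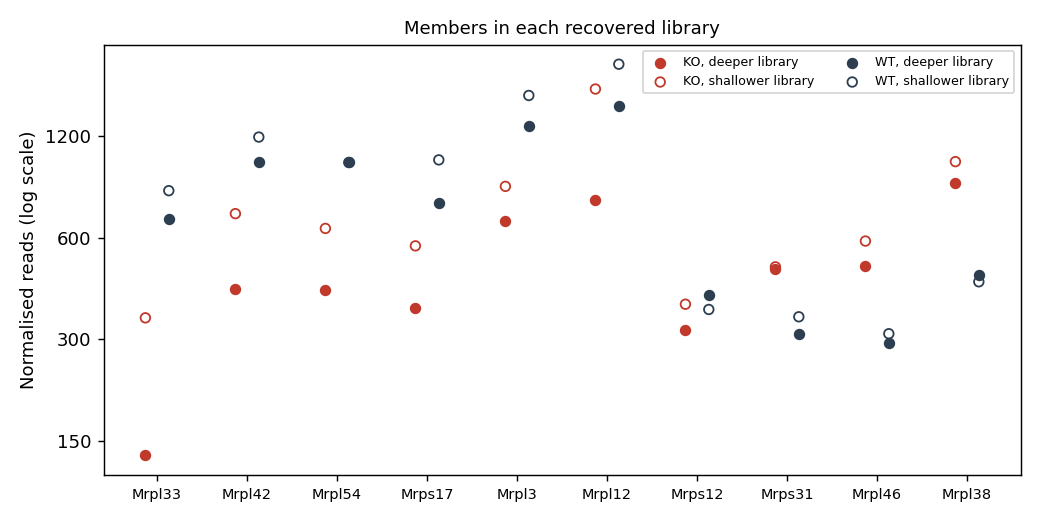
Normalised reads (log scale) of 10 genes, ordered by ratio, in the KO libraries (red, left of each pair of columns) and the WT libraries (dark blue, right), with filled points for the deeper and open points for the shallower library. Mrpl33 has 136 and 347 normalised reads in KO and 682 and 826 in WT, Mrpl38 has 869 and 1007 against 465 and 444, and the deeper KO library of every gene shown lies below the shallower one.

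In the small subunit the head holds the upper part of the decoding site. Its median and that of the platform with the messenger RNA channel lay on different sides of 0. The 7 genes listed for the head had a median log2 ratio of 0.18, with 3 above WT in both KO libraries and none below. This count leaves out Mrps24, which was listed with the channel. Mrps31 had 485 and 492 normalised reads in KO and 311 and 350 in WT (ratio 1.48). Mrps9 had 496 and 713 in KO and 402 and 428 in WT (1.46), and Mrps35 had 528 and 656 in KO and 420 and 447 in WT (1.36). Mrps7, the small subunit gene with the most reads, was almost level, with 1184 and 1341 in KO and 1186 and 1246 in WT (1.04). The 8 genes listed for the platform and channel had a median of -0.23, with 3, among them Mrps24, below WT in both KO libraries and none above. Over all genes tested, 30.4% lay above and 28.8% below. The head genes were also longer, with a median coding length of 726 bases against 465. Whether length bears on this difference was not tested. Mrps21 had 323 and 476 in KO and 575 and 537 in WT (0.718), and Mrps24 had 331 and 461 in KO and 487 and 497 in WT (0.805), although Mrps24 shares exon positions with Urgcp on the same strand. Mrps5, at the entry of the channel, had a ratio of 1.22 with overlapping libraries. Mrps12, the counterpart of the bacterial protein that controls decoding accuracy, had 319 and 381 in KO and 406 and 368 in WT (0.905). No gene of either group passed the 1.5-fold rule.

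The lowest small subunit gene was Mrps17, with a bacterial counterpart. It had 373 and 567 normalised reads in KO and 759 and 1019 in WT, a ratio of 0.529 (0.488 to 0.572) with a limma adjusted p of 0.116. Mrps15 had 427 and 662 in KO and 758 and 890 in WT (ratio 0.661), and Mrps16 had 259 and 390 in KO and 457 and 500 in WT (0.679). In all 3 the KO libraries lay below the WT libraries. Mrps27, an RNA-binding protein of the pentatricopeptide family, had 465 and 594 in KO and 362 and 398 in WT (1.4). Mrps6, at 0.739, had 393 and 274 in KO and 579 and 323 in WT. Its exons overlap those of Slc5a3 on the same strand, and reads of the genes cannot be separated here.

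The 3 Mrps18 paralogs, which replaced a single bacterial protein, did not share a direction. Mrps18a had 538 and 580 normalised reads in KO and 424 and 398 in WT (ratio 1.36). Mrps18b had 1086 and 1293 in KO and 848 and 1249 in WT (1.13), and its libraries overlapped. Mrps18c had 349 and 401 in KO and 489 and 547 in WT (0.724). Mrps18a and Mrps30 carry small subunit symbols but sit in the large subunit, and Mrps30 had 727 and 835 in KO and 504 and 582 in WT (1.44). Mrps36, now known as a part of the oxoglutarate dehydrogenase complex, had 396 and 522 in KO and 381 and 352 in WT (1.25), and 3 annotated pseudogenes bear its name. All 3 genes whose symbol misplaces them had both KO libraries above both WT libraries. So had 30.4% of all genes tested and 24.1% of the genes with small subunit symbols. Whether placement bears on the direction was not tested.

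By origin, the 46 genes with a bacterial counterpart had a median log2 ratio of -0.15, with 3 above WT in both KO libraries and 16 below. The other 30 genes, grouped as specific to mitochondria, had a median of -0.06, with 11 above (36.7%) and 12 below (40%). That grouping is loose, since it holds Mrps18a and Mrps18b, which are paralogs of Mrps18c, and Mrps36, which is not a ribosomal protein. Mrps18a and Mrps36 were among the 11 above. The shares with a bacterial counterpart were 6.52% above and 34.8% below. Over all 76 genes they were 18.4% above and 36.8% below, and over all genes tested 30.4% above and 28.8% below. Levels of different genes were also ranked per kilobase of transcript, since the ranks by most or fewest reads given above are not corrected for length. In normalised reads per kilobase, averaged over the genotypes, Mrpl20 (1269.0), Mrpl54 (1266.6) and Mrpl42 (1247.6) led the large subunit, and all 3 were among the 14 genes lower at 1.5-fold. The same 3 led in WT, while in KO Mrpl28 (1129.1) and Mrpl12 (922.9) stood above Mrpl20 (919.5). Mrps18b (1037.1), Mrps21 (978.5) and Mrps15 (730.1) led the small subunit.

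Short genes had lower ratios. Across the 76 genes the Spearman correlation of the log2 ratio with coding length was 0.58, and it was 0.59 in the large and 0.57 in the small subunit. It is a description over genes that share the same libraries, and it was 0.13 over the 10390 tested genes with a coding length and 0.15 over those no longer than 1350 bases. The 23 genes with a coding length up to 450 bases had a median log2 ratio of -0.47, with 16 below WT in both KO libraries and 1 above. From 450 to 750 bases the median of 26 genes was -0.15, and from 750 to 1050 bases the median of 19 genes was 0.17. The 8 longest genes had a median of 0.50, with 1 below and 5 above. Of all 606 tested genes up to 450 bases, 275 were below and 104 above. Of all 1474 from 1050 to 1350 bases, 386 were below and 464 above. Over all genes tested, the medians were -0.30 up to 450 bases, -0.13 from 450 to 750, -0.01 from 750 to 1050 and 0.03 from 1050 to 1350.

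Coding length did not separate the subunits as a whole, since the medians were 576 bases for large and 588 for small subunit genes. Within the length classes the large subunit median was -0.58 and the small subunit median -0.44 up to 450 bases, and -0.27 and -0.04 from 450 to 750. Above that the order was not kept, with 0.17 and 0.09 from 750 to 1050 bases and 0.50 in both above 1050, where there were 2 large and 6 small subunit genes. Mrpl3, with a coding length of 1044 bases and a log2 ratio of -0.91, was the long gene furthest from the trend, and Mrps36, at 306 bases and 0.33, was the only short gene above WT in both KO libraries. The correlation was present for every pair of a KO with a WT library, from 0.46 to 0.60, where all genes gave 0.02 to 0.18. It was 0.36 with the length of the whole transcript in place of the coding part.

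**Figure D4:**
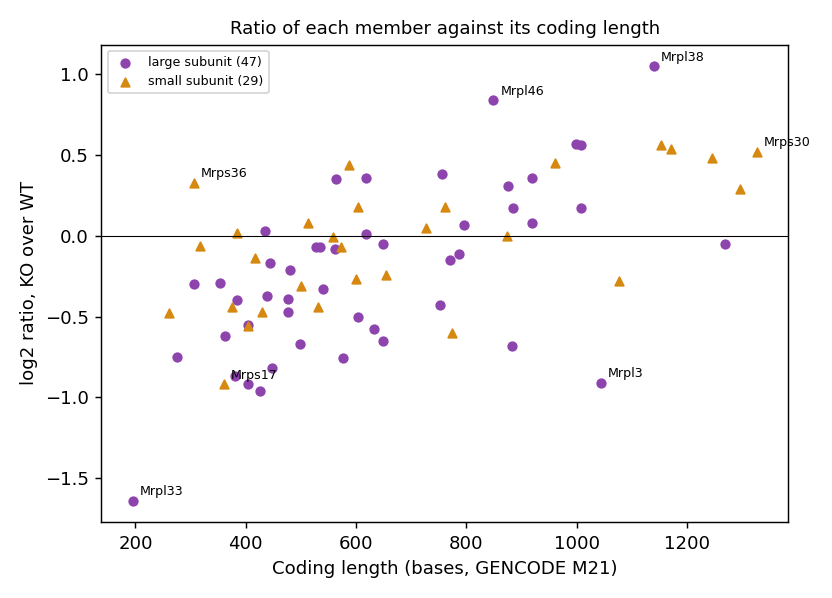
KO over WT log2 ratio against coding length in bases for large (circles) and small (triangles) subunit genes, from the annotation's representative transcript. The shortest gene, Mrpl33 (195 bases), has a log2 ratio of -1.64, and 5 of the 8 genes longer than 1050 bases have both KO libraries above both WT libraries.

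The KO libraries also differed from each other in these genes. Of the 76, 74 were lower in the deeper than in the shallower KO library, and 58 were lower in the deeper than in the shallower WT library. Mrps6 and Mrpl45 were the exceptions in KO. Over all genes tested, 48.6% and 48.4% were lower in the deeper library. The median log2 difference of deeper over shallower was -0.43 for large and -0.35 for small subunit genes in KO, and -0.15 and -0.16 in WT, against 0.02 and 0.01 for all genes. Cytosolic ribosomal protein genes moved in the same way, with -0.84 in KO and -0.44 in WT, and nuclear genes of oxidative phosphorylation had -0.35 and -0.09. As a result the median log2 ratio of all 76 genes depended on which KO library was used. It was -0.31 and -0.39 for the deeper KO library over the deeper and the shallower WT library, and 0.09 and -0.03 for the shallower KO library. Spearman's correlation of deeper over shallower with coding length was 0.16 in KO and -0.15 in WT for the 76 genes, and 0.25 and 0.06 for all genes tested. The part that this difference between libraries plays in the KO over WT ratios was not tested.

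Other genes of the pathway were counted by lists. Among 7 mitoribosomal proteins whose symbols do not follow the Mrpl or Mrps form, none passed the 2-fold rule, with a median log2 ratio of 0.09. Mitochondrial translation factors included 1 call in 13 genes. Gfm2, an elongation factor that helps to recycle ribosomes, had 838 and 857 normalised reads in KO and 360 and 318 in WT, a ratio of 2.5 (2.28 to 2.74) with a limma adjusted p of 0.0217. Tsfm, the exchange factor of the elongation factor Tufm, had 240 and 321 in KO and 505 and 515 in WT (ratio 0.551, limma adjusted p = 0.0833), and Tufm itself had a ratio of 1.1. The list's median log2 ratio was 0.13, with 4 above and 4 below (30.8% each), near the shares of 30.4% and 28.8% over all genes tested, and its 1 call stands beside 8.92% called higher. Of 19 assembly factors none passed the 2-fold rule, and their median was -0.01. At 1.5-fold 2 were higher and 4 lower, beside 17.3% and 17.9% of all genes tested.

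For the promoter motifs, Nrf1, Yy1 and the GABP genes Gabpa, Gabpb1 and Gabpb2 were listed, and none of these 5 passed the 2-fold rule. Nrf1 had 689 and 821 normalised reads in KO and 812 and 854 in WT (ratio 0.906), and Gabpa had 1128 and 1196 in KO and 1144 and 1317 in WT (0.944). Yy1 had 1674 and 1426 in KO and 1019 and 969 in WT (1.56), with a limma adjusted p of 0.0836. Of the coactivators of mitochondrial biogenesis, 1 was higher and 1 lower. Ppargc1b passed both tests, with 138 and 96.5 normalised reads in KO and 14.5 and 22.4 in WT, a ratio of 6.36 (4.45 to 9.34) and a limma adjusted p of 0.0324. Ppargc1a passed only the rule of size, with 9.2 and 1.99 in KO and 103 and 19.1 in WT, a ratio of 0.0916 (0.0461 to 0.166). Its limma adjusted p was 0.147, and most of its WT reads came from the deeper library.

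Related gene sets give a scale for these values. Cytosolic ribosomal protein genes had a median log2 ratio of -0.67 over 75 tested genes, with 44 below WT in both KO libraries, none above and 17 lower at 2-fold. Nuclear oxidative phosphorylation genes had a median of -0.17 over 81 tested genes, with 34 below, 15 above, 1 lower at 2-fold and none higher. The median over all 76 mitochondrial ribosomal protein genes was -0.13, with 28 below, 14 above and 1 lower at 2-fold. Over all genes tested, 28.8% lay below, 30.4% lay above and 8.56% were lower at 2-fold. The shares below were 58.7% for cytosolic ribosomal protein genes, 42% for oxidative phosphorylation genes and 36.8% for the 76 genes. These are counts set side by side, and the difference between the sets was not tested.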

How the data were processed

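The authors deposited 1 table with the columns of a DESeq comparison, per the file headers. It holds, as a signal, the authors' mean read count per gene after division by size factors, with their ratio (fold) of KO over WT, its log2 value, and p-values with adjusted p-values. Per the submitters' processing notes, DESeq 1.10.1, TopHat 1.4.0 and mm9 were used, in roles those notes leave unsaid. How reads were counted, on which annotation and whether by strand, is not given in the sources used here. The order of names in the table's title makes A the WT and B the KO, and every direction rests on this. Of 23227 symbols, 5924 had no reads.

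From these values, each genotype's mean was split into the whole reads of 2 libraries. A single solution existed for 100% of the genes with reads (16350 in KO, 16386 in WT), and size factors recomputed from those reads matched to 5 decimals. The deposited fold and log2 values were recomputed from the means. Genes with a mean of at least 20 normalised reads were tested, 11710 in all. Ratios carry 95% exact (Clopper-Pearson) counting intervals, which cover counting error only. limma 3.58.1 (R 4.3.3) with trend was fitted to log2(normalised reads + 1) of all tested genes, with Benjamini-Hochberg adjustment. It was run on simulated counts in which each gene varied between libraries independently. That run does not cover a shift between libraries shared by many genes. Its p-values measure only the spread between these libraries. Large and small subunit were taken from the symbol. Coding lengths came from GENCODE M21 on GRCm38, found for 88.7% of tested genes, and promoters from RefSeq. Neither is of the authors' build, and no coordinates were joined. Of the 76 genes, 32 share exon positions with another annotated gene, 8 on the same strand, and 3 have named pseudogenes.

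Members, lists and tests were chosen with earlier results of these data known. Every member could be named. Full values went to called members, the 6 highest and 6 lowest ratios and the 3 most abundant of each subunit, and the structural groups described. Genes of the lists of other mitoribosomal proteins, translation factors, assembly factors and regulators were named where called. Collagen and other marker genes, Tsfm, Tufm, Nrf1, Yy1 and GABP genes were named after their values were seen. No mitochondrially encoded gene was analysed here. Scaling, filters, pseudocount, thresholds, subunit placement and left-out libraries were varied.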

Additional observations from a re-analysis of the deposited data

How the results depend on the processing

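The count of genes passing the 2-fold rule was 2 with no filter, with a filter of 100 reads and with scaling to total reads, and 16 at 1.5-fold. It ran from 2 to 11 when a library was left out, with 11 (all lower) without the shallower KO library. Without the deeper WT library it was 5. The authors' deposited table called 1 gene, Mrpl33, at an adjusted p below 0.05. By limma the count was 1 under both filters, a pseudocount of 5 and scaling to total reads. It was 0 without any 1 library, in fits that lean on the libraries left and assume that the lone library varies like the others. Without either KO library limma called 0 of all 11710 genes, and without the deeper or the shallower WT library it called 719 and 572. No paired analysis was possible because the labels list 1 sample per genotype with no shared replicate numbers. A block by depth rank, which stands in place of a replicate block and is no pairing from the labels, gave 22 calls, 6 higher and 16 lower, and 4241 over all genes.

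The large subunit median ran from -0.51 to -0.05 with a library left out and the small subunit median, which changed sign, from -0.18 to 0.14. Scaling to total reads moved the median of all genes to 0.06, the large subunit to -0.15 and the small to 0.05, with the difference at -0.20. The difference of medians ran from -0.33 to -0.19 with a library left out, was -0.13 for the shallower pair of libraries and -0.11 by structural placement, and was below 0 under every alternative run. Summed levels moved by less than the spread between libraries. Dicer1 stayed below 1 and outside the 2-fold rule, with ratios from 0.591 to 0.713, partly outside its counting interval. Mrpl33 ran from 0.181 to 0.461 and kept its call. Ratios of 26 genes, none with an absolute log2 ratio over 0.44, crossed 1 when a library was left out. Of 238 alternative values of single genes, 210 kept their direction and their call, 16 passed the 2-fold rule where they had not, 10 crossed 1 without a call on either side, and 2 no longer passed it, both for Mrpl38 (1.91 without the shallower KO library and 1.87 for the deeper pair). Which cause lies behind these shifts was not tested. Every gene had a mean of at least 171.5 normalised reads, and the counting intervals do not cover the spread between libraries.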

Other observations

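Mitochondrial aminoacyl-tRNA synthetase genes, which load the transfer RNAs that the mitochondrial ribosome uses, were measured for 22 of 24 listed genes. None passed the 2-fold rule, and 7 lay above WT in both KO libraries while 2 lay below (31.8% and 9.09%, beside 30.4% and 28.8% of all genes tested), with a median log2 ratio of 0.06. Iars2 had 1800 and 1542 normalised reads in KO and 1272 and 1099 in WT, and Sars2 had 336 and 269 in KO and 211 and 195 in WT. Lars2 showed how far libraries of a genotype could differ, with 7803 and 6114 in KO and 3880 and 8344 in WT. These genes were picked after their values were seen.

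Genes of mitochondrial transcription and replication were measured for 8 of 13 listed genes, and none passed the 2-fold rule. Their median log2 ratio was -0.05, with a range from -0.76 to 0.57. Lrpprc was the only 1 with a ratio above 1, with 3601 and 4093 normalised reads in KO and 2373 and 2815 in WT (1.48). Polrmt, the mitochondrial RNA polymerase, had 776 and 772 normalised reads in KO and 794 and 759 in WT. Tfam, which packages mitochondrial DNA, had 787 and 960 in KO and 940 and 1040 in WT. Peo1, the replicative helicase also known as Twnk, had 525 and 610 in KO and 885 and 1037 in WT, a ratio of 0.591. Its exons overlap those of Mrpl43 on the other strand, and Mrpl43 had a ratio of 0.72.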
